A study of Mus musculus with 15 samples.

Results

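Plasmablasts derived from the germinal centre (GC-PB) were compared with Fraction 1, the Bcl6-low cells of the germinal centre light zone, across all genes. The comparison used 6 of the 15 mouse libraries in the series, 3 per group, and 11190 of the 23420 genes in the deposited table, those above 0 in at least 3 of the 15 libraries. In both groups the donor B cells carried 1 copy of the B1-8hi knock-in (B1-8hi (KI/+)), a heavy chain that binds the hapten NP. They were transferred into C57BL6 hosts, which keep their own B cells, so that CD45.1 marked the donor cells. After immunization of the hosts with NP-CGG (complete Freund's adjuvant), 100 cells per library were sorted from the draining lymph node on day 12. Fraction 1 came from donors that also carried a Bcl6 reporter (Bcl6-YFP (KI/+)) and was gated as B220+ CD45.1+ CD38lo GL7hi CXCR4lo CD86hi CD69hi Bcl6lo. GC-PB came from donors with S1pr2-ERT2cre Tg and ROSA-Ai14 (KI/+), given tamoxifen on days 6, 7 and 8, and was gated as CD45.1+ CD138hi CD44hi tdTomato+. In these donors the S1pr2 promoter, which is active in germinal centre B cells, drives a Cre that tamoxifen switches on, so that tdTomato marks cells that passed through that state and their progeny. Cell type, donor line and tamoxifen go together in this design and cannot be told apart. The replicates are independent library preparations, with no statement that they came from separate animals, so that the p-values rest on the variation among library preparations, which may be technical.

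In the germinal centre, B cells mutate their receptor genes in the dark zone and present antigen to follicular helper T cells in the light zone, where CD40 and receptor signals decide which cells go on. Bcl6, Pax5 and Bach2 keep the B cell programme in place, and Irf4, Blimp-1 (the product of Prdm1) and Xbp1 replace it with that of the antibody-secreting plasma cell. Xbp1 and Atf6 belong to the unfolded protein response, which enlarges the endoplasmic reticulum (ER) and its supply of chaperones. The comparison asks how light zone cells with little Bcl6, in a series titled for germinal centre B cells prone to become plasma cells, differ from the plasmablasts themselves.

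The deposited total was 65535 to 77163 per GC-PB library and 107578 to 115088 per Fraction 1 library, a ratio of means of 0.652 (exact permutation test, two-sided, p = 0.1, the smallest value possible with 3 against 3). Read as molecules, the totals stood for 184103 to 216584 in GC-PB and 326122 to 376992 in Fraction 1. Each library was therefore brought to an equal total without Rn45s, a ribosomal RNA precursor, and a level below is a value on that scale. One unit of level stands for 4.29 to 5.08 molecules in GC-PB and 8.12 to 9.30 in Fraction 1. In bulk samples, fewer cells of a type and less RNA per cell cannot be told apart. Across genes, the log2 levels of replicates correlated at 0.971 to 0.974 in Fraction 1 and at 0.931 to 0.950 in GC-PB (Pearson). The lower 2 of the 3 GC-PB values both involved replicate 1, which had higher levels of immediate early genes, given below. Both groups carried Xist, and transcripts of the Y chromosome were at 0 or near 0 in them, with Uty at 0.233 in GC-PB replicate 1 as the highest value, while the 9 other libraries of the series carried Ddx3y, so that donor sex as read from these genes did not separate GC-PB from Fraction 1.

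Of the 11190 genes, 4064 (36.3%) passed limma's test at an adjusted p under 0.05. GC-PB was higher for 1573 (14.1% of those tested) and lower for 2491 (22.3%). Counts of list members called below are to be read against these shares, and counts as deposited against the shares of that scale. The 3 libraries of each group did not overlap for 4795 genes (42.9%). Differences are given as log2 differences, GC-PB minus Fraction 1, on the log2(level + 1) scale, with the standard error (SE). This scale understates the change of genes with low levels. The median over all tested genes was -0.06 at equal totals. On the values as deposited it was -0.42, with 1250 genes higher (11.2%) and 5130 lower (45.8%), and with scaling by median ratios 2092 were higher and 1955 lower. The direction of the balance therefore depended on the scale. As deposited, 1160 of the 1573 higher genes and all 2491 lower genes were called in the same direction, and 4 of the higher genes were called lower. The deposited scale moves the differences down as a whole, so that lower calls could hardly fail on it. For lower calls, here and in the lists below, it is therefore not an independent check. With Igj left out of the totals, 1668 were higher and 2347 lower, and none of the 3920 genes called both ways changed sign.

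**Figure D1:**
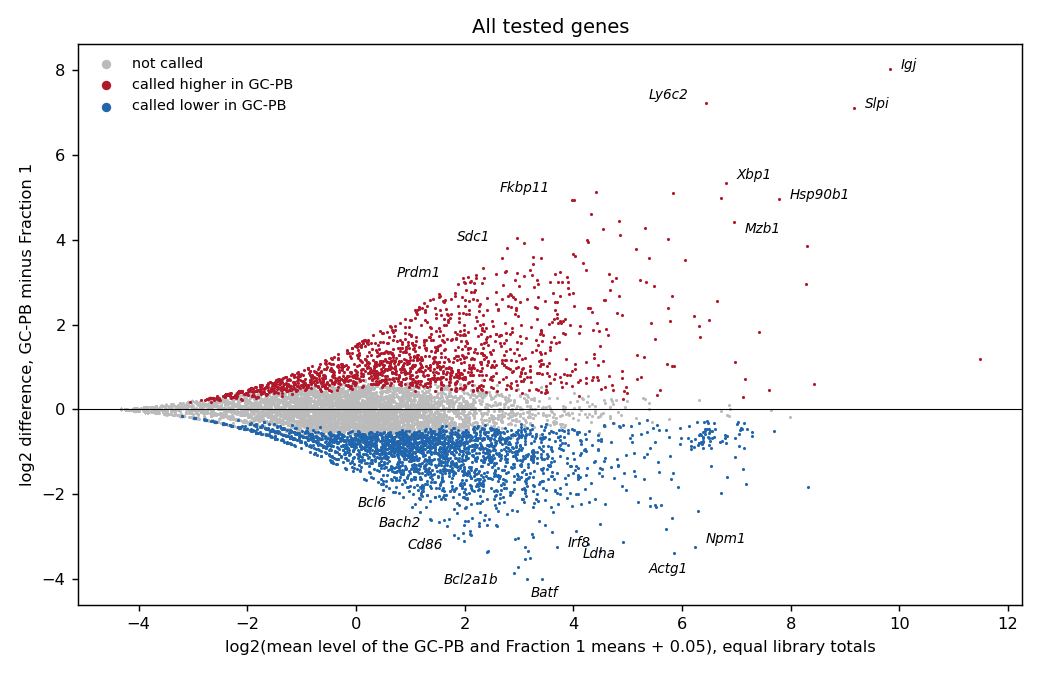
Each point is 1 of the 11190 tested genes. The x axis is the log2 mean level of the 2 groups (0.05 added) and the y axis the log2 difference, GC-PB minus Fraction 1. Red and blue points passed limma's test (1573 higher, 2491 lower). Igj, Ly6c2 and Slpi lie highest and Batf and Bcl2a1b lowest.

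Between the 2 groups, the RNA of the proteins used in the sort went with the gates for Sdc1, Cd86 and Cxcr4. It did so less clearly for Cd44 and not for Cd69. Sdc1, which encodes CD138, was at 15.8, 11.4 and 13.6 in GC-PB replicates 1 to 3 and at 0.118, 0 and 0 in Fraction 1. Cd86, the costimulatory ligand that gates Fraction 1, was at 6.71, 7.74 and 7.26 in Fraction 1 and listed at 0 in all 3 GC-PB libraries (adjusted p = 5.36e-10). Bcl6, the repressor at the centre of the germinal centre programme, was at 2.82, 4.299 and 4.801 in Fraction 1 and listed at 0 in each GC-PB library (adjusted p = 1.87e-10). GC-PB thus lay below even the fraction sorted for little Bcl6. The Bcl6-high light zone Fractions 2 and 3 had means of 15.5 and 21.3, against 3.98 in Fraction 1, which went with the Bcl6lo gate. Cd44, an adhesion receptor in the plasmablast gate, was at 17, 20.3 and 13.4 in GC-PB and 10.9, 9.35 and 10.7 in Fraction 1. Its difference was 0.64 ± 0.19 (adjusted p = 0.00895), the call was lost without GC-PB replicate 2, and as deposited the difference was -0.0039. Cd69, an early activation marker used to gate Fraction 1, was at 16.1, 4.14 and 3.51 in GC-PB and 1.65, 3.22 and 3.08 in Fraction 1, so that RNA was not higher in the gated group. Its call as higher in GC-PB (1.04 ± 0.36, adjusted p = 0.0269) was lost without Fraction 1 replicate 1 and without GC-PB replicate 1. Cxcr4, a chemokine receptor gated low in Fraction 1, was higher in GC-PB in all libraries, at 9.55, 7.68 and 8.05 against 1.53, 2.04 and 1.35. Ptprc, which encodes CD45, did not pass the test, at 13.04, 11.6 and 11.4 in GC-PB and 12.2, 11.9 and 14.7 in Fraction 1. Cd38 was near 0 in both groups.

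The regulators of the plasma cell state separated the groups. Of the 16 tested regulators, 12 were called higher in GC-PB and 2 lower, against 14.1% and 22.3% of all tested genes, with a median log2 difference of 1.84. Some of them, such as Bhlha15, passed the filter on low values almost only through GC-PB. With the filter at 6 libraries above 0, 10 were called higher. Xbp1 (chromosome 11, 5520659 to 5525893), the transcription factor of the secretory programme, was at 243, 206 and 206 in GC-PB and 2.94, 5.37 and 5.17 in Fraction 1. The lowest GC-PB library was many times above the highest Fraction 1 library, and the log2 difference was 5.35 ± 0.19 (adjusted p = 8.47e-15). Prdm1 (chromosome 10, 44437177 to 44528501), which encodes Blimp-1, was at 9.78, 6.11 and 5.78 in GC-PB. In Fraction 1 it was at 0.118, 0 and 0, so that 1 library of 3 held any of it (difference 2.95 ± 0.18, adjusted p = 4.48e-11). Irf4 (chromosome 13, 30749226 to 30766976), the factor upstream of Prdm1, was already measurable in Fraction 1 at 5.41, 4.51 and 6.402 and was at 12.6, 16.8 and 16.7 in GC-PB. Its groups did not overlap, and the difference of 1.34 ± 0.21 (adjusted p = 3.26e-05) was smaller than that of Xbp1.

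The other regulators followed at different sizes. Ell2, an elongation factor that favours the secreted form of the immunoglobulin heavy chain, was at 22.8, 22.9 and 24.4 in GC-PB and 1.18, 1.94 and 1.97 in Fraction 1. Its 3 GC-PB values lay close together and far above Fraction 1 (3.19 ± 0.16, adjusted p = 1.56e-12). Bhlha15, which encodes the secretory cell factor Mist1, was at 7.22, 6.11 and 9.91 in GC-PB, whereas every Fraction 1 library listed it at 0 (adjusted p = 8.67e-12). Eaf2, a partner of Ell2, was at 26.5, 35.5 and 30.98 against 1.18, 2.58 and 1.23. Pou2af1, the B cell coactivator Bob.1, was high in both groups, at 41.2, 49.8 and 51.8 in GC-PB and 29.8, 25.6 and 27.6 in Fraction 1 (0.76 ± 0.10, adjusted p = 3.48e-06). Atf6, a membrane-bound sensor of the unfolded protein response, was at 11.4, 7.29 and 7.85 against 1.18, 1.505 and 0.616. The 2 regulators called lower were the zinc finger genes Ikzf1 (-0.68) and Ikzf3 (-0.86), and Zbtb20 (-0.13, adjusted p = 0.689) and Kat6b (-0.07, adjusted p = 0.761) did not pass the test.

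**Figure D2:**
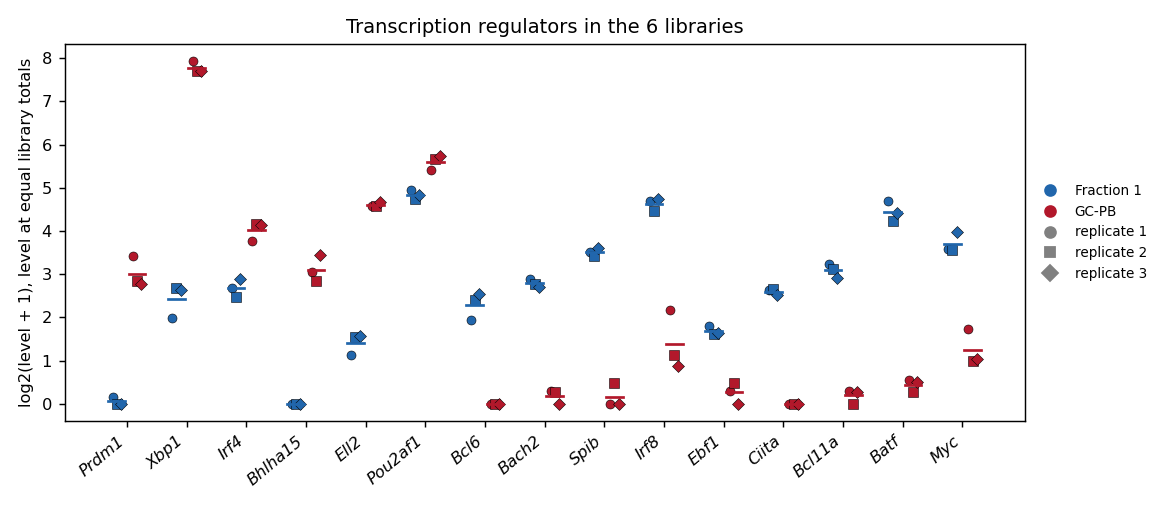
Levels of 15 transcription regulators in each of the 6 libraries, as log2(level + 1) at equal library totals. Blue marks Fraction 1, red marks GC-PB, marker shapes give the replicate and short bars the mean of 3. Prdm1, Xbp1, Irf4, Bhlha15, Ell2 and Pou2af1 lie higher in every GC-PB library, and the other 9 lie lower.

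Genes for secreted and surface proteins of plasma cells held the 3 largest rises, those of Igj, Ly6c2 and Slpi. Of 28 listed genes, 23 passed the filter on low values. Of these, 20 were called higher and none lower, against 14.1% and 22.3% of all tested genes. Some of the listed genes were above 0 almost only in GC-PB, which is how they passed the filter. When a gene had to be above 0 in at least 6 libraries, 13 were called higher. Igj (chromosome 5, 88519809 to 88527891), the joining chain of secreted IgM and IgA, was at 2073, 1510 and 1815 in GC-PB and 4.94, 7.95 and 5.17 in Fraction 1. That RNA took 3.54% to 4.84% of the deposited total of the GC-PB libraries and 0.0123% to 0.0196% in Fraction 1. Its log2 difference of 8.02 ± 0.14 (adjusted p = 8.61e-20) was the largest of any gene that met the naming rule. Slpi (chromosome 2, 164354070 to 164389095), a secreted protease inhibitor, was at 1534, 895 and 992 in GC-PB and 5.53, 10.96 and 5.66 in Fraction 1 (7.11 ± 0.29, adjusted p = 6.51e-14).

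Mzb1, an ER protein that helps assemble immunoglobulin, was at 254, 222 and 238 in GC-PB and 9.77, 10.5 and 10.3 in Fraction 1. All 3 GC-PB libraries were far above Fraction 1 (4.41 ± 0.10, adjusted p = 7.46e-18). Ly6c2 (chromosome 15, 75108158 to 75111970), a surface antigen of mouse plasma cells, was at 277, 105 and 141 in GC-PB and 0.118, 0 and 0.123 in Fraction 1. Ly6c2 shares much of its sequence with its neighbour Ly6c1, which was at 14.8, 5.57 and 6.88 against 0, 0.107 and 0.185, so that the split of reads between the pair is uncertain. Ly6a, which encodes Sca-1, was at 226, 184 and 200.1 against 4.06, 5.75 and 6.96. Tnfrsf17, the survival receptor BCMA, was low in GC-PB, at 2.79, 4.14 and 2.06, and listed at 0 in all Fraction 1 libraries (adjusted p = 9.27e-10). Tnfrsf13b, the related receptor TACI, did not pass the test (0.64, adjusted p = 0.0991). Cd28, a T cell receptor partner that plasma cells also use, was at 10.01, 11.2 and 8.47 against 0.235, 0 and 0. Slamf7, a surface receptor of plasma cells, was at 21.7, 16.8 and 20.6 in GC-PB and was also present in Fraction 1 at 4.71, 4.73 and 6.53.

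Most tested genes of the folding machinery of the ER were higher in GC-PB. Of 30 tested sensors and regulators of the unfolded protein response, 26 were called higher and none lower (median 2.14). Of 28 tested chaperones and oxidative folding factors, 23 were called higher and none lower (median 2.24). As deposited, 24 and 22 were higher and 0 and 1 lower. With the filter at 6 libraries above 0, 24 and 22 were called higher, since some members, such as Fkbp11, were above 0 almost only in GC-PB. The lists share members with each other and with the plasma cell lists, among them Xbp1, Atf6, Mzb1, Fkbp11 and Derl3. Hsp90b1 (chromosome 10, 86690209 to 86705509), the ER form of Hsp90, was at 474, 426 and 382 in GC-PB and 12.3, 14.4 and 11.7 in Fraction 1. The groups were far apart, with a difference of 4.95 ± 0.15 (adjusted p = 1.84e-15). Hspa5, the chaperone BiP, was at 194, 163 and 159.7 against 28, 28.5 and 28.3, a smaller difference of 2.56 ± 0.13 from a higher level in Fraction 1. Txndc5, a protein disulfide isomerase, was at 49.1, 67.6 and 50.8 against 2.23, 2.902 and 1.72. Fkbp11, a prolyl isomerase of the ER, was at 34.7, 31.1 and 27.5 in GC-PB and 0, 0.107 and 0 in Fraction 1. That gene was therefore close to a presence or absence difference at this depth.

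Within the stress response itself, the members were not equal. Edem1, which acts in ER-associated degradation, the return of misfolded proteins to the cytosol, was at 73.3, 78.6 and 78.9 in GC-PB and 3.29, 2.47 and 3.32 in Fraction 1 (4.28 ± 0.14, adjusted p = 5.48e-15). Manf, a secreted ER stress protein, was at 59.4, 67.6 and 74.3 against 6.94, 7.201 and 7.51. Derl3, a channel component of the same degradation route, was at 30.7, 28.6 and 31.6 against 0.941, 1.397 and 2.22. Other genes of that route, Derl1 (1.85), Edem3 (1.98) and Syvn1 (2.05), differed by less than the list median of 2.14. Atf4, the factor of the arm that runs through the kinase Perk, differed by 0.55 ± 0.17 (adjusted p = 0.0125), a call that was lost without Fraction 1 replicate 3 or without GC-PB replicate 1, and as deposited it differed by -0.11. Ddit3, which encodes the death-linked factor Chop, was at 1.86, 0.985 and 0.413 in GC-PB and 0.588, 0.752 and 0.492 in Fraction 1 and did not pass the test (0.32, adjusted p = 0.336). Trib3, another target of that arm, was near 0 in both groups. Ern1, the kinase that splices Xbp1 RNA, was at 0.233, 0.394 and 0.206 in GC-PB, with every Fraction 1 library listed at 0, too low to size its difference. Canx, a lectin chaperone, was at 16.3, 18.3 and 17.97 in GC-PB and 15.3, 17.5 and 17.4 in Fraction 1 and did not differ beyond its spread (0.06 ± 0.15, adjusted p = 0.778).

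Promoter sequences of the 2 ER lists were searched for known elements of the unfolded protein response. The sequences came from RefSeq (GRCm38.p6, the same coordinates as mm10), 250 bases before to 50 after the start of each gene, and 23 of the 29 chaperone genes and 23 of the 30 response genes had one. The ER stress response element was taken as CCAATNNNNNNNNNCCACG on either strand, the form bound by Atf6 with the factor NF-Y. It was found in 5 of the 23 chaperone promoters (21.7%) and 4 of the 23 response promoters (17.4%), against 35 of all 27025 promoters (0.13%). The element is known from genes of this response, so that this contrast could hardly fail. It uses no level measured here and is not a result about GC-PB. Among tested genes the element was in 16 of 8258 promoters (0.194%), in 8 of 1178 of the genes called higher (0.679%) and in 2 of 1885 of those called lower (0.106%). All 8 of these higher genes belong to the 2 lists, so that their share restates the list counts. The opposite strand of the shorter core GACGTGG of the unfolded protein response element starts with the CCACG of the first motif, so that matches can overlap. This core was in 3 of 23 chaperone promoters (13%) and 1 of 23 response promoters (4.35%). It was in 2.39% of all promoters and 3.74% of those of tested genes, close to the share of the response list. Among genes called higher 6.79% held the core, and among those called lower 2.6%. Hspa5 holds the element as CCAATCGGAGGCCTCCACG, 65 to 47 bases before its start. The promoters of 3 genes that rose and of Canx, which holds the element and did not pass the test, are shown for comparison. Each is written 5′ to 3′ on the strand of the gene, up to the first base of an annotated exon, and capitals mark the matches, which read CGTGG first where they lie on the opposite strand.
Hsp90b1 (chr10:86705510-86705694, minus strand, 2 matches, log2 difference 4.95): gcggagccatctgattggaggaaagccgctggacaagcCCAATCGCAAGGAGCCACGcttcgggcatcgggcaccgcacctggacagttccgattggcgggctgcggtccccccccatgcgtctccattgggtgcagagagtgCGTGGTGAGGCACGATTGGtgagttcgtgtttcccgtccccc
Creld2 (chr15:88819396-88819645, plus strand, log2 difference 4.26): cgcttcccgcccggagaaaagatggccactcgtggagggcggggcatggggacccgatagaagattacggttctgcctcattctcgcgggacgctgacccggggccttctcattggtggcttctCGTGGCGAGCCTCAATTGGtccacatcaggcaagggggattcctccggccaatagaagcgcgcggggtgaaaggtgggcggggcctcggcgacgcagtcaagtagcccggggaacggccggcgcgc
Derl3 (chr10:75893148-75893397, plus strand, log2 difference 3.67): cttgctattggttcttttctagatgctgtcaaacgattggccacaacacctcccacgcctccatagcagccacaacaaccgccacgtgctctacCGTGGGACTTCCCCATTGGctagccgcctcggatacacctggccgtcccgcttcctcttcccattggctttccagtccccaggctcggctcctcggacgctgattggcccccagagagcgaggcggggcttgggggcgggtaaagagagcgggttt
Canx (chr11:50325674-50325923, minus strand, log2 difference 0.06): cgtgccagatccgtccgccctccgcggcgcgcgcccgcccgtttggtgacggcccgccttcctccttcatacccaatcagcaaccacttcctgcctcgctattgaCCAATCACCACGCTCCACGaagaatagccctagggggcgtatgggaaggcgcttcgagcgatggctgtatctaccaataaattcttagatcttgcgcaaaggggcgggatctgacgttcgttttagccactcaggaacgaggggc
A match is a description of the letters, and these data hold no measurement of binding. The element was present both in genes with differences of over 4 on the log2 scale and in Canx at 0.06.

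Entry into the ER followed the same direction. Of 28 tested genes of translocation and signal peptide processing, 27 were called higher and none lower (median 2.06), and only Sec11a (-0.15, adjusted p = 0.624) did not pass. As deposited, 23 were called higher and 1 lower, and with the filter at 6 libraries above 0, 26 were called higher. Ssr4, a subunit of the translocon-associated complex, was at 114, 83.7 and 109 in GC-PB and 4.35, 6.02 and 5.66 in Fraction 1 (4.02 ± 0.14, adjusted p = 9.61e-15). Sec61b, a subunit of the channel itself, was at 77.1, 99.1 and 96.5 against 16.1, 15.3 and 17.5. Sec11c, a catalytic subunit of the signal peptidase, was at 80.6, 74.5 and 78.5 against 4.94, 6.23 and 5.91, whereas the alternative subunit Sec11a was at 1.63, 3.55 and 2.69 against 2.59, 2.58 and 3.69. The paired subunits thus behaved differently, with no overlap of groups for Sec11c and overlapping groups for Sec11a. Ckap4, a protein that shapes ER sheets, was at 31.4, 34.3 and 30.2 against 0.118, 0.107 and 0.

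Of 36 tested genes of N-glycosylation, which attaches sugar chains to new proteins, 23 were called higher and 2 lower (median 1.06). The shares of all tested genes were 14.1% and 22.3%, and as deposited the list had 20 and 4. Of the oligosaccharyltransferase that works at the translocon, the subunit gene Krtcap2 was at 65.7, 74.9 and 77.04 in GC-PB and 8.82, 8.71 and 7.14 in Fraction 1 and Ddost at 30.04, 26.99 and 27.9 against 4, 3.01 and 3.201. The 2 catalytic subunits differed in direction. Stt3a, which works during translocation, was at 10.5, 13.2 and 15.1 against 2.71, 2.902 and 3.94 (1.73 ± 0.20, adjusted p = 4.36e-07). Stt3b, which works on finished proteins, was at 6.99, 6.698 and 8.16 against 10.8, 12.2 and 13.3 (-0.66 ± 0.13, adjusted p = 0.00025), the opposite order. St6gal1, the sialyltransferase of B cell glycoproteins, was at 17.9, 22.9 and 19.8 against 3.06, 4.73 and 4.68. Of 43 tested genes of vesicle transport from the ER to the Golgi, 38 were called higher and none lower (median 1.14), and as deposited 27 higher and 2 lower. Sec24d, a cargo adaptor of the vesicle coat, was at 5.36, 8.67 and 9.29 against 0, 0 and 0.246, while Sec24c was at 4.42, 4.92 and 4.13 against 2.94, 2.47 and 2.34. Lman1, a cargo receptor for glycoproteins, was at 23.1, 23.4 and 25.2 against 3.18, 3.65 and 2.09 (2.67 ± 0.20, adjusted p = 6.68e-10).

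**Figure D3:**
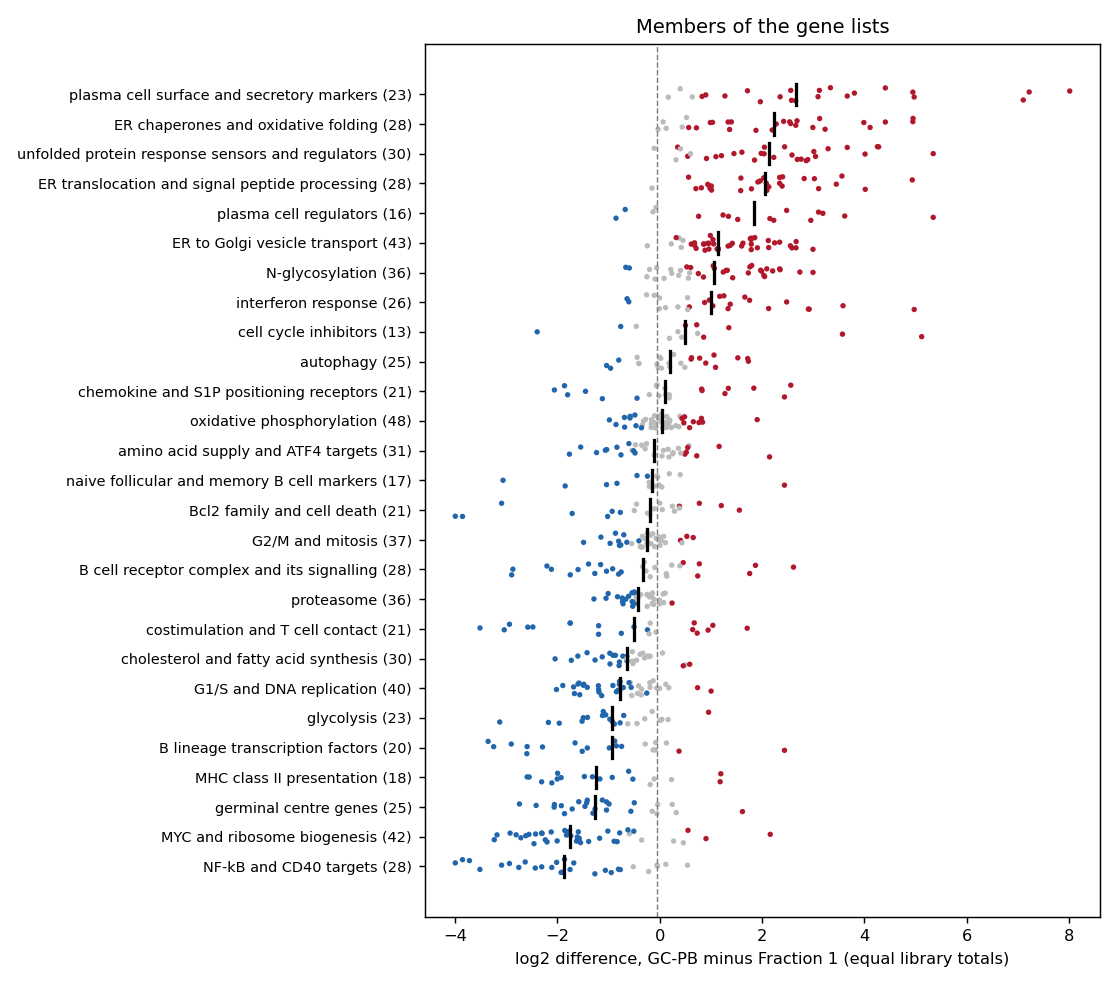
Each point is 1 tested member of a gene list (number tested in brackets) and the x axis its log2 difference, GC-PB minus Fraction 1, at equal totals. Red and blue points passed limma's test, grey points did not, black bars give the list median and the dashed line the median of all tested genes (-0.06). The secretory and ER lists lie right of the line and the MYC, NF-kB and germinal centre lists left of it.

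Transcription factors of the B cell programme were lower in GC-PB. Of 20 tested, 13 were called lower and 2 higher, with a median of -0.93, as deposited 17 and 1. Bach2 (chromosome 4, 32238804 to 32586108), the repressor of Prdm1, was at 0.233, 0.197 and 0 in GC-PB and 6.35, 5.804 and 5.54 in Fraction 1 (-2.60 ± 0.12, adjusted p = 9.33e-13). Spib (chromosome 7, 44525993 to 44532071), an Ets factor of B cells, was at 0, 0.394 and 0 against 10.5, 9.67 and 11.2 (-3.35 ± 0.16, adjusted p = 7.92e-13). Fraction 1 held both genes in every library, and in GC-PB at least 1 library of each was at 0. Irf8 (chromosome 8, 120736358 to 120756694), which acts against Irf4 in this lineage, was at 3.49, 1.18 and 0.826 against 24.9, 21.2 and 25.6, without overlap. Bcl11a was at 0.233, 0 and 0.206 against 8.47, 7.74 and 6.53. Ebf1, the early B cell factor, was at 0.233, 0.394 and 0 against 2.47, 2.04 and 2.09 (-1.42 ± 0.22, adjusted p = 3.2e-05). Pax5 could not be compared, since it was at 0, 0 and 0 in GC-PB and 0, 0.215 and 0 in Fraction 1. Batf (chromosome 12, 85686669 to 85709087), an AP-1 factor of activated B cells outside this list, was at 0.466, 0.197 and 0.413 against 24.7, 17.6 and 20.4 and had the largest fall of any gene that met the naming rule (-4.0 ± 0.20, adjusted p = 1.46e-12). The 2 factors called higher were Klf2, a regulator of lymphocyte exit, at 14.9, 4.92 and 6.61 against 1.06, 0.752 and 0.246, and Tcf4 (0.38). Mef2c (-0.08, adjusted p = 0.691), Ets1 (-0.28, adjusted p = 0.187), Foxo1 (0.13, adjusted p = 0.619) and Tcf3 (-0.13, adjusted p = 0.568) did not pass the test.

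Genes of the germinal centre reaction were lower as a group. Of 25 tested, 19 were called lower and 1 higher (median -1.26), as deposited 20 lower and 1 higher. Apex1, a nuclease of base excision repair, was at 0.466, 0.985 and 1.03 in GC-PB and 10.5, 10.96 and 11.9 in Fraction 1 (-2.74 ± 0.20, adjusted p = 3.81e-10). S1pr2, whose promoter drives the Cre used to mark GC-PB, was at 0.931, 0.591 and 0.6196 against 1.53, 3.01 and 4.06 (-1.12 ± 0.19, adjusted p = 6.19e-05). Its RNA was thus low in the marked cells at the time of the sort. Fas, the death receptor of germinal centre cells, was at 0.233, 0.985 and 0.826 against 4.59, 3.65 and 5.05. Rgs13, which dampens chemokine signals, was at 0, 0 and 0.206 against 2.82, 3.22 and 2.58. The exception was Nuggc, a germinal centre GTPase, which rose from 0.353, 0.537 and 0.616 in Fraction 1 to 2.56, 4.53 and 3.92 in GC-PB (1.62 ± 0.18, adjusted p = 3.86e-07). Mybl1 (0.0657 against 0.5002) and Neil1 (0.729 against 0.345) had mean levels under 1 in both groups.

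The B cell receptor complex did not move as a block. Of 28 tested genes, 13 were called lower and 6 higher (median -0.32), against 22.3% and 14.1% of all tested genes. As deposited these were 20 and 3. The inhibitory receptor Cd22 was at 0.233, 0.591 and 0 against 7.41, 7.42 and 9.85, and the phosphatase Ptpn6 that it recruits at 1.397, 1.58 and 1.65 against 10.2, 9.35 and 12.8. Ms4a1, which encodes CD20, was at 6.05, 4.73 and 7.64 against 18.6, 26.7 and 23.5. The signalling chain Cd79a, in contrast, was at 34.9, 18.1 and 24.8 in GC-PB and 17.9, 22.8 and 23.3 in Fraction 1 and did not pass the test (0.23, adjusted p = 0.293, as deposited -0.45). Its partner Cd79b differed by 0.46 ± 0.10 (adjusted p = 0.000604) and the adaptor Blnk by 0.74 ± 0.11 (adjusted p = 1.94e-05), both higher in GC-PB. As deposited these were -0.22 and 0.08, so that their direction depended on the scale for Cd79b. The genes called higher also included Cd81, a tetraspanin of the coreceptor complex, at 16.8, 16.9 and 17.8 against 4.47, 4.08 and 4.55, and Fcrla, an ER-resident Fc receptor-like protein, at 17.5, 13.4 and 16.7 against 0.824, 2.37 and 2.34.

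Antigen presentation on MHC class II was lower, with an exception. Of 18 tested genes, 13 were called lower and 2 higher (median -1.24), against 22.3% and 14.1% of all tested genes. Ciita, the master activator of class II genes, was at 5.18, 5.27 and 4.68 in Fraction 1 and listed at 0 in all GC-PB libraries (adjusted p = 7.79e-10). Among its targets, H2-Aa was at 14.2, 13.8 and 19.6 in GC-PB and 88.1, 101 and 103 in Fraction 1 (-2.55 ± 0.12, adjusted p = 5.41e-13). H2-Ab1, the partner chain, was at 24.4, 21.9 and 28.5 against 69.4, 70.6 and 71.8. The genes were low but not lost in GC-PB, and the peptide exchange gene H2-DMa was at 1.397, 4.14 and 2.48 against 13.7, 14.5 and 14.2. Cd74, the invariant chain, was at 288, 174 and 253 in GC-PB and 246, 269 and 284 in Fraction 1 and did not pass the test (-0.19 ± 0.13, adjusted p = 0.279). As deposited Cd74 differed by -0.88 (adjusted p = 2.21e-05). The 2 genes called higher were the lysosomal proteases Ctss (1.18) and Lgmn (1.19), which cut the invariant chain and antigens.

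Of 21 tested genes for contact with T cells, 12 were called lower and 6 higher, against 22.3% and 14.1% of all tested genes. As deposited these were 14 and 2. Cd83, a light zone marker, was at 1.63, 0.591 and 0 in GC-PB and 17.8, 15.3 and 19.4 in Fraction 1 (-3.51 ± 0.24, adjusted p = 1.75e-10). Cd40, the receptor for T cell help, was at 0.233, 0 and 0.413 against 8.94, 7.31 and 8.49 (-2.94 ± 0.20, adjusted p = 1.5e-10). Il21r, the receptor for the cytokine of follicular helper T cells, was at 0.931, 0.788 and 0.826 against 7.65, 10.3 and 10.2. Slamf1 was at 0.466, 0.197 and 0 against 6.82, 5.27 and 6.65. The groups did not overlap for any of these 4 receptors. In the opposite direction, Cd274, which encodes the inhibitory ligand PD-L1, was at 10.01, 2.17 and 1.65 in GC-PB and 0.588, 0.215 and 0.369 in Fraction 1 (1.71 ± 0.33, adjusted p = 0.000247).

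Targets and components of NF-kB and CD40 signalling had a median log2 difference of -1.88. Of 28 tested, 22 were called lower and none higher, against 22.3% and 14.1% of all tested genes. As deposited 26 were lower and none higher. Nfkb2, the precursor of the noncanonical subunit p52, was at 0.466, 0.197 and 0.826 in GC-PB and 9.88, 9.67 and 7.51 in Fraction 1 (-2.76 ± 0.22, adjusted p = 1.68e-09). Traf1, a signalling adaptor induced by CD40, was at 0.466, 0.591 and 0.206 against 8.24, 5.48 and 6.402. Nfkbie, an inhibitor that the pathway induces, was at 0.466, 0.197 and 0.6196 against 7.88, 6.99 and 8.49. The actin bundler Fscn1 (chromosome 5, 142960343 to 142973185) was at 0.466, 0.788 and 0.413 against 16.9, 16.7 and 16.5. The survival genes Bcl2a1b and Bcl2a1d were nearly absent in GC-PB. Bcl2a1b was at 0, 0.06501 and 0.413 in GC-PB and 18.8, 14.01 and 19.6 in Fraction 1 (-4.0 ± 0.19, adjusted p = 7.38e-13), and Bcl2a1d at 0, 0.262 and 0 against 16.4, 11.97 and 15.98. Bcl2a1a, Bcl2a1b and Bcl2a1d are near-identical copies, so that the split of reads among them is uncertain while the fall was seen in each. The canonical subunits Rel (-0.52, adjusted p = 0.131) and Rela (-0.22, adjusted p = 0.388) did not pass the test, nor did the death inhibitor Cflar, at 20.99, 26.5 and 16.7 against 17.4, 19.3 and 21.3.

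The MYC and ribosome biogenesis list held 42 tested genes, of which 35 were called lower and 3 higher (median -1.75), as deposited 37 and 3. Myc, the growth regulator that T cell help induces in the light zone, was at 2.33, 0.985 and 1.03 in GC-PB and 11.1, 10.8 and 14.8 in Fraction 1 (-2.46 ± 0.23, adjusted p = 1.99e-08). Npm1, a chaperone of ribosome assembly in the nucleolus, was at 11.9, 15.96 and 13.2 against 144, 129.9 and 135 (-3.23 ± 0.13, adjusted p = 3.53e-14). Ncl, which encodes nucleolin, was at 10.01, 15.6 and 11.8 against 101, 87.01 and 88.2. Their levels in the 3 GC-PB libraries were all far under those in Fraction 1. Hspd1, the mitochondrial chaperonin, was at 3.03, 4.14 and 2.06 against 38.5, 30.5 and 37.1. The 3 genes called higher, Mxd1 (0.91), Mxd4 (2.16) and Mxi1 (0.55), all encode antagonists that share the MYC partner Max. Max itself was at 0.233, 0.788 and 0.413 against 3.88, 4.84 and 3.57. Of the enzymes of polyamine synthesis, Odc1 was at -0.51 (adjusted p = 0.0019) and Srm did not pass the test (-0.35, adjusted p = 0.27).

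Of 23 tested glycolysis genes, 15 were called lower and 1 higher (median -0.93), against 22.3% and 14.1% of all tested genes. As deposited these were 19 and 1. Ldha, which makes lactate, was at 4.42, 6.11 and 5.58 in GC-PB and 59.5, 50.4 and 53.4 in Fraction 1 (-3.13 ± 0.11, adjusted p = 1.18e-14). Pgam1 was at 6.05, 7.09 and 4.13 against 24.7, 23.2 and 26.96, and Tpi1 at 3.49, 2.56 and 1.45 against 16, 13.7 and 13.5, both without overlap. The gene called higher was Bpgm (0.95), which makes a side product of the pathway. Oxidative phosphorylation, the respiratory chain of mitochondria, split evenly at equal totals, with 9 of 48 tested genes higher and 9 lower, near the shares of all tested genes (median 0.04). As deposited, 1 was higher and 34 lower, and with median ratios 20 were higher and 4 lower, so that no direction held across scales for this list. Ndufa1, a small subunit of complex I, stood apart from its complex at 38.6, 35.7 and 41.7 against 11.2, 8.38 and 9.36 (1.91 ± 0.13, adjusted p = 1.55e-10).

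Genes of cell division were lower mainly among those of DNA replication. Of 40 tested genes of the G1/S step and DNA replication, 25 were called lower and 2 higher (median -0.78), as deposited 34 and none. Mcm3, a subunit of the replicative helicase, was at 0.466, 2.96 and 4.13 in GC-PB and 10.6, 11.7 and 12.4 in Fraction 1 (-2.02 ± 0.28, adjusted p = 5.16e-06). Cdk4, the kinase of G1 entry, was at 4.19, 2.96 and 3.51 against 15.7, 12.2 and 12.9, and its cyclin Ccnd3 at 1.397, 2.36 and 1.24 against 6.82, 6.88 and 8.37. The other D cyclin on the list, Ccnd2, was at 28.9, 33.1 and 22.3 against 34.1, 25.5 and 32.4 and did not pass the test (-0.13, adjusted p = 0.706). Of 37 tested genes of G2 and mitosis, 10 were called lower and 3 higher, and 24 did not pass (median -0.24). Among all tested genes 22.3% were called lower and 14.1% higher, so that the count of lower genes was near the general share. This count moved with the scale and the libraries, with 26 lower as deposited, 6 with median ratios and 6 without GC-PB replicate 1. Mki67, the proliferation marker Ki-67, was at 10.9, 15.8 and 12.8 in GC-PB and 10.3, 11.3 and 7.51 in Fraction 1 (0.41 ± 0.15, adjusted p = 0.0368). That call was lost without Fraction 1 replicate 3, GC-PB replicate 2 or GC-PB replicate 3, and as deposited the difference was -0.24. Cdk1, the mitotic kinase, was at 1.86, 3.35 and 2.27 against 3.18, 2.26 and 2.71 and did not pass the test (-0.10, adjusted p = 0.735).

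Of 13 tested cell cycle inhibitors and antiproliferative genes, 6 were called higher and 2 lower, against 14.1% and 22.3% of all tested genes. Trp53inp1 (chromosome 4, 11156431 to 11174379), a target of p53 that promotes autophagy, was at 32.4, 43.5 and 51.02 in GC-PB and 0.235, 0.322 and 0.123 in Fraction 1 (5.12 ± 0.18, adjusted p = 8.47e-15). The related genes Btg1 and Btg2 went in opposite directions without overlap. Btg2 was at 22.1, 17.5 and 20.9 in GC-PB and 0.824, 0.752 and 0.739 in Fraction 1, and Btg1 at 3.26, 0.591 and 2.06 against 13.1, 13.2 and 14.2. Cdkn2c, which encodes the cell cycle inhibitor p18, did not pass the test (0.74, adjusted p = 0.071). Among 21 tested genes of the Bcl2 family and cell death, 4 were called higher and 7 lower, as deposited 4 and 10, at equal totals shares not far from those of all tested genes. Mcl1, the survival factor on which plasma cells depend, was at 40.3, 20.9 and 27.9 in GC-PB and 12.5, 10.2 and 13.2 in Fraction 1 (1.20 ± 0.18, adjusted p = 1.29e-05). Bcl2l11, which encodes the death activator Bim, was also higher, at 6.99, 7.68 and 4.96 against 1.53, 2.04 and 1.11. Bcl2l1, which encodes Bcl-xL, was at 1.397, 2.96 and 1.03 against 4.94, 2.26 and 3.94 (-0.77, adjusted p = 0.031), and Bcl2 was under 1 in the mean of both groups.

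Receptors that place cells in the lymph node or let them leave it divided, with 7 of 21 tested genes higher and 6 lower (median 0.10), as deposited 6 and 8. Among all tested genes 14.1% were called higher and 22.3% lower. Cxcr5, which draws B cells into follicles, was at 0.466, 0.197 and 0.6196 in GC-PB and 5.06, 5.697 and 4.06 in Fraction 1 (-2.06 ± 0.22, adjusted p = 1.57e-07). Cxcr4, which draws cells to the dark zone and to bone marrow, was the opposite, at 1.84 (adjusted p = 2.54e-08). Itga4, a chain of the integrin VLA-4, was at 6.05, 8.87 and 8.68 against 0.706, 0.537 and 0.246. Itgal, a chain of LFA-1, was at 9.31, 6.501 and 5.37 against 1.65, 1.505 and 3.57. The 7 genes called higher were Cxcr4, Cxcr3, the integrin chains Itga4, Itgal, Itgb2 and Itgb7, and Klf2. S1pr1, the exit receptor, was at 0, 0.591 and 0.206 against 0.588, 0.107 and 0.123 and could not be compared at this level.

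Of 26 tested interferon response genes, 16 were called higher and 2 lower (median 1.00), against 14.1% and 22.3% of all tested genes. As deposited these were 15 and 4. The list shares Ly6a and Zbp1 with the plasma cell lists, and Ly6a made up 203.5 of its summed mean of 455 in GC-PB. Ifi27l2a was at 70.1, 88.1 and 81.9 in GC-PB and 9.35, 8.49 and 11.3 in Fraction 1 (2.92 ± 0.14, adjusted p = 9.21e-13). Isg20, a nuclease also high in plasma cells, was at 17.5, 17.9 and 19.6 against 0.706, 0.645 and 0.492. Bst2, a surface protein that tethers viruses, was at 20.3, 14.6 and 9.91 against 1.06, 1.397 and 0.739. Ifit1, Ifit3, Mx1 and Ifi44, classical genes of the response, did not pass the filter on low values.

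Of 25 tested autophagy genes, 9 were called higher and 3 lower, against 14.1% and 22.3% of all tested genes. As deposited, 6 were higher and 7 lower. Map1lc3b, which coats autophagosomes, was at 14.2, 14.2 and 18.2 in GC-PB and 4.35, 4.73 and 5.05 in Fraction 1 (1.53 ± 0.15, adjusted p = 3.17e-08). Of 36 tested proteasome genes, 17 were called lower and 1 higher, against 22.3% and 14.1% of all tested genes. As deposited 35 were lower, and with median ratios 7 were lower and 4 higher. The alpha subunit gene Psma6 was at 4.19, 4.73 and 5.37 against 14.9, 11.8 and 12.4 (-1.29 ± 0.15, adjusted p = 6.73e-07). Of 30 tested genes of cholesterol and fatty acid synthesis, 15 were called lower and 2 higher, against 22.3% and 14.1% of all tested genes. As deposited 26 were lower and 1 higher. Scd1, a desaturase, was at 1.63, 0.985 and 1.03 against 6.82, 5.91 and 6.16. Of 31 tested genes of amino acid supply, 6 were called higher and 10 lower, at equal totals not far from the shares of all tested genes. As deposited these were 3 and 16 and with median ratios 9 and 7, so that the balance depended on the scale. Psat1, Shmt2 and Mthfd2, enzymes of serine and folate metabolism, were among the 10, with Mthfd2 at 0.931, 1.97 and 1.86 against 7.29, 8.71 and 7.02. In contrast, Slc3a2, a shared chain of amino acid transporters, was at 18.9, 11.03 and 14.97 against 6.12, 5.71 and 6.16.

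Immediate early genes, which respond to stimulation within minutes, were examined as a list chosen after their values were seen, since Fos and Fosb stood among the 12 genes with the largest rises. Of 23 tested, 15 were called higher and 2 lower, against 14.1% and 22.3% of all tested genes. As deposited these were 14 and 5, and without GC-PB replicate 1 they were 13 and 3. The 2 called lower were Dusp2 (-2.11) and Egr2 (-1.125), and Junb and Ier5 were among those that did not pass the test. Fos (chromosome 12, 85473890 to 85477273), a subunit of AP-1, was at 168, 72.1 and 95.01 in GC-PB and 1.18, 2.79 and 2.46 in Fraction 1 (5.11 ± 0.24, adjusted p = 6.51e-13). Jun, its partner, was at 80.8, 13.99 and 18.6 against 0.824, 0.967 and 0.862. GC-PB replicate 1 was the highest of the 3 GC-PB libraries for 21 of the 23 genes, against 30.6% of all tested genes and 39.5% of the genes called higher. The summed level of the list was 693, 251 and 318 in GC-PB replicates 1 to 3 and 52.6, 58.1 and 59.1 in Fraction 1. All 3 GC-PB libraries were thus above Fraction 1, and replicate 1 was more than 2 times as high as either of the others. Such genes can respond to the handling of cells, and the part of handling in this difference was not tested.

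**Figure D4:**
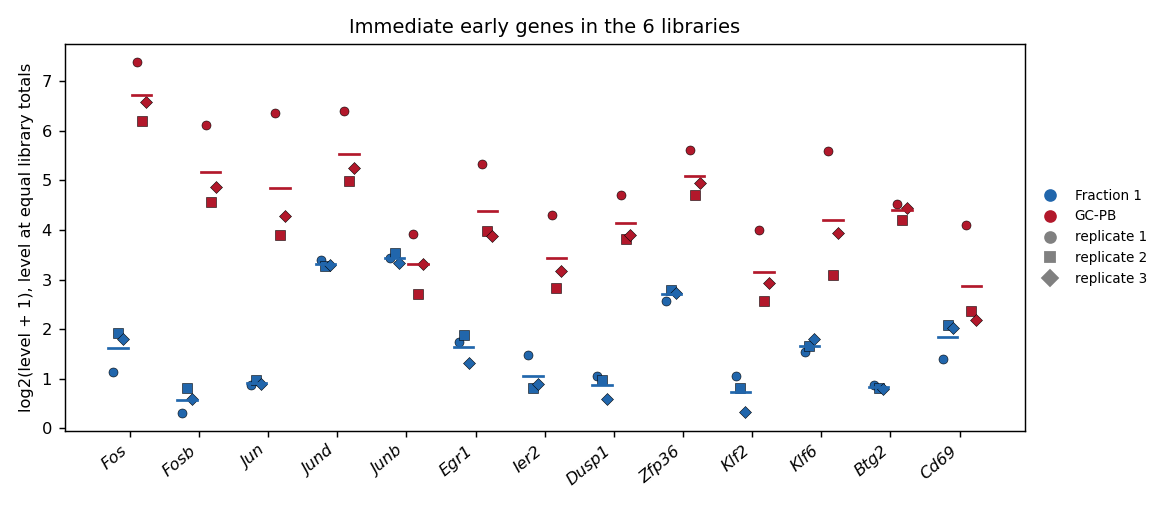
Levels of 13 of the 23 tested immediate early genes in each of the 6 libraries, as log2(level + 1) at equal library totals. The 2 genes of the list called lower, Dusp2 and Egr2, are not shown. Blue marks Fraction 1, red marks GC-PB, shapes give the replicate and short bars the mean of 3. GC-PB replicate 1 (red circles) is the highest library for each gene shown, and Junb and Cd69 have the smallest gaps between the groups.

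Markers of other cell types were low in all 6 libraries. Of 16 T cell markers, 11 were listed at 0 in all 6 libraries, Cd4, Cd8a and Cd5 among them, and the sum was 0 to 1.24 in GC-PB and 3.41 to 5.66 in Fraction 1. Most of the sum in Fraction 1 was Lck, at 3.18, 3.33 and 5.42, which B cells can also express. Of 19 myeloid and dendritic cell markers, 8 were listed at 0 in all 6, and the sum was 4.09 to 5.26 in GC-PB and 2.62 to 3.17 in Fraction 1. The member called higher was Xcr1 (2.69, 2.498 and 2.13 in GC-PB against 0.268, 0.191 and 0.585), while the defining genes Lyz2, Csf1r, Itgam and Clec9a were at 0. All 9 NK cell markers were listed at 0, and the erythroid and stromal markers summed to at most 1.16 per library. Fcer2a, the low affinity IgE receptor CD23 of naive B cells, was at 14.8, 11.7 and 15.8 in Fraction 1 and 1.93, 0.5398 and 0.275 in GC-PB (-3.06 ± 0.27, adjusted p = 1.15e-08). Markers of naive and memory B cells summed to 10.2 to 21.7 in GC-PB and 21.6 to 29.4 in Fraction 1. The part of such cells in the results was not tested.

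Against the other 3 groups of the series, the dark zone (DZ) and the Bcl6-high light zone Fractions 2 and 3, GC-PB stood alone for the secretory lists, whereas for growth lists Fraction 1 was at the other extreme. These 3 groups differ from both groups compared here in donor sex as read from Xist and Ddx3y and in the scale of their deposited values, so that their levels are a description. The ER chaperone list summed to 1418 ± 48.4 (SD, n = 3) in GC-PB, 156 ± 7.99 in Fraction 1, 145 ± 12.6 in Fraction 2, 131 ± 3.64 in Fraction 3 and 122 ± 9.24 in DZ. Fraction 1 was thus close to its germinal centre neighbours on this list. The unfolded protein response list was at 777 ± 57.5 in GC-PB and 77.3 ± 5.52 in Fraction 1, the lowest mean of the 5 groups. The MYC and ribosome biogenesis list was at 732 ± 33.8 in Fraction 1, 382 ± 9.999 in Fraction 2, 242 ± 15.3 in Fraction 3, 224 ± 17.5 in DZ and 162 ± 16.6 in GC-PB. The NF-kB and CD40 list was at 223 ± 17.8 in Fraction 1 and 63.6 ± 19.8 in GC-PB, between DZ at 49.3 ± 0.602 and Fraction 3 at 81.9 ± 9.98. The germinal centre and B lineage lists, in turn, stepped down from the Bcl6-high fractions to Fraction 1 and again to GC-PB, with the germinal centre list at 212 ± 4.37 in Fraction 3, 115 ± 7.99 in Fraction 1 and 34.4 ± 4.08 in GC-PB.

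**Figure D5:**
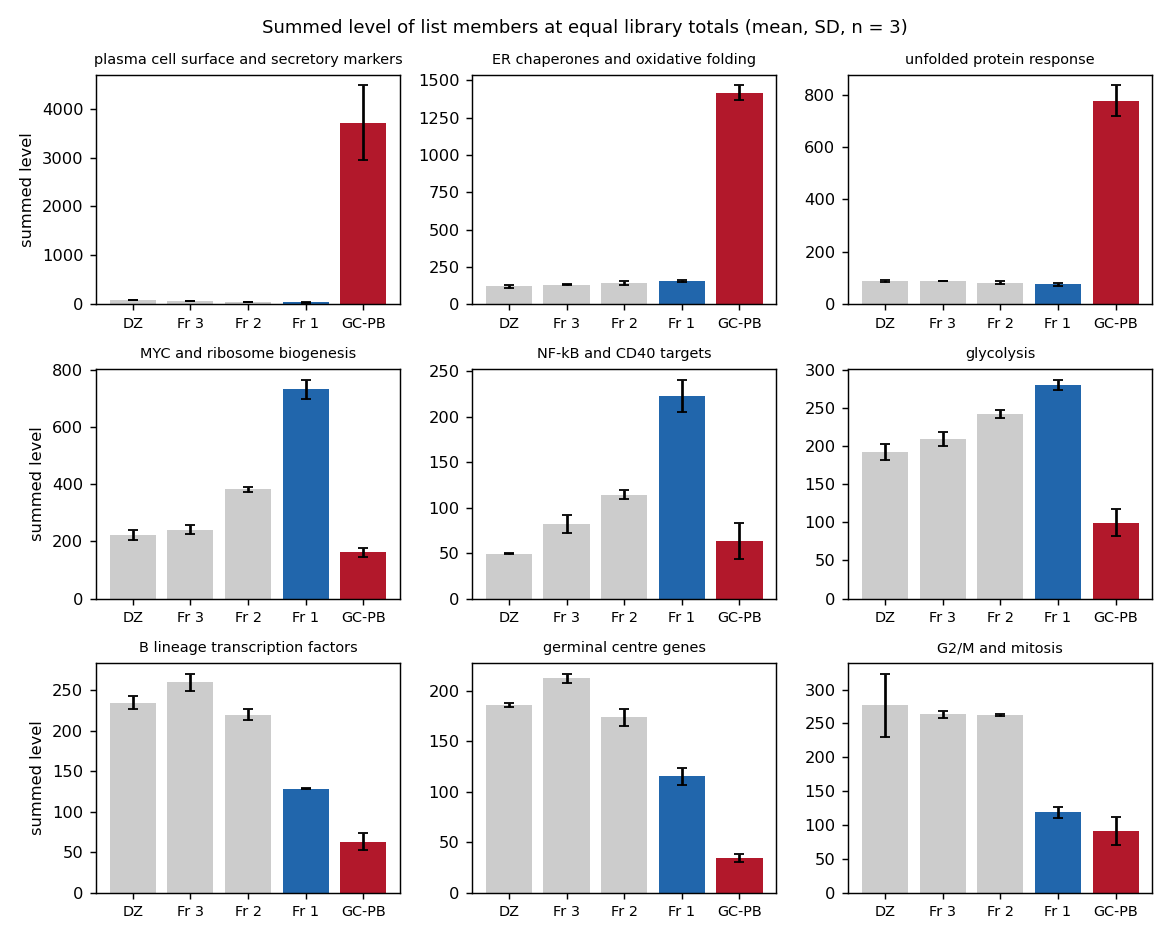
Summed level of the members of 9 gene lists at equal library totals in the 5 groups of the series. Bars give the mean and error bars the SD of 3 libraries, with Fraction 1 in blue, GC-PB in red and the other groups in grey. The top row is high in GC-PB alone, the middle row peaks in Fraction 1, and the bottom row is lowest in GC-PB.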

How the data were processed

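RNA was measured in 15 libraries of 100 sorted mouse cells, 3 in each of 5 groups. Groups and replicate numbers came from the sample titles. Per the labels, the authors added ERCC spike-in RNA, tagged molecules with barcodes during reverse transcription and deposited 1 table of expression values, here called signal, for 23420 genes. Per the submitters' processing notes, TopHat2 was used with the build mm10, and the version is not given in the sources used here. The deposited signal was close to whole molecules times a constant of each library, with 91.6% to 92.3% of values above 0 whole multiples within 0.02 in the 6 libraries compared. No rows were taken out, apart from Rn45s in the totals and genes under the filter on low values in the fit. Levels of spike-in, mitochondrially encoded and immunoglobulin segment transcripts are not given here.

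Each library was scaled to a total of 38594.1 without Rn45s, the median over libraries. The model was fitted by limma 3.58.1 (R 4.3.3, trend option) on log2(level + 1) of 11190 genes, with 5 group means over all 15 libraries and the contrast GC-PB minus Fraction 1. All adjusted p-values are limma's with Benjamini-Hochberg adjustment over these genes, called under 0.05. The members and lists were chosen with earlier results of these data known, and 7 further sets (immediate early genes, heat shock genes, nuclear-retained RNAs, actin cytoskeleton, MHC class I and both kinds of ribosomal proteins) after their values here were seen. Lists are described by counts and medians with no set test. Genes named are the 12 rises and 12 falls with the largest log2 difference among called genes without overlap whose higher group averaged at least 1.15, up to 4 called members per list by smallest p, and all sort markers, key regulators, sex-linked transcripts and defining markers. Other list members in the text were chosen after their values were seen. Positions of the 144 genes so named are from GENCODE M21 on GRCm38. The method was tested on simulated data over 11231 genes, where it called 46% of 2-fold and 81% of 4-fold changes and 3.8% of its calls were false. The simulation changed 200 genes, with as many rises as falls and the same spread in every group. The real comparison called 4064 genes, and its GC-PB replicates were less alike than those of Fraction 1. The 3.8% therefore does not carry over to it. Alternatives covered the scale, Igj, pseudocount, filter, libraries in the fit, replicate block, trend and each left-out library. Figures were drawn with matplotlib 3.10.9 in Python 3.11.15.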

Additional observations from a re-analysis of the deposited data

How the results depend on the processing

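The number of genes called, 4064 at equal totals, was 6380 on the values as deposited, with 5130 of them lower, and 4047 with median ratios. The share of calls that were higher was 38.7% at equal totals, 19.6% as deposited and 51.7% with median ratios. Leaving out 1 library of the 6 gave 3487 to 3878 calls, 1338 to 1553 higher and 2135 to 2326 lower. Without the other groups in the fit there were 3574. Same-numbered replicates did not deviate together (r of -0.010, 0.005 and -0.002), so that they share only a number, and the fit with the replicate number as a block called 4013 genes (1553 higher, 2460 lower). Of the 135 named genes that were called, 130 kept call and direction as deposited, 3 were no longer called and 2 reversed in sign, Cd44 at -0.0039 and Mki67 at -0.24. Cd79a, not called at equal totals, was at -0.45 as deposited. All 135 kept call and direction with median ratios and without Igj, and 132 to 134 when 1 library was left out. The count model on recovered molecules was not run, since too few values were whole multiples. The ratio of deposited totals was 0.618 without Rn45s, 0.589 without Rn45s and Igj, 0.578 in molecules and 0.629 to 0.681 with 1 library left out. Depth limits the low genes: a level of 1 stands for about 5 molecules in GC-PB and about 9 in Fraction 1, and differences of genes at such levels are uncertain.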

Other observations

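Gene groups outside the lists above were examined after their values were seen, and are given as values. Genes of the actin cytoskeleton were lower in GC-PB, with 25 of 30 called lower and 3 higher (median -1.25) and 27 lower as deposited. Their summed level was 327, 415 and 431 in GC-PB replicates 1 to 3 and 1249, 1207 and 1254 in Fraction 1. Actg1, a cytoplasmic actin, was at 4.66, 14.97 and 10.2 in GC-PB and 115, 104 and 95.9 in Fraction 1, and Lcp1, an actin bundler of white blood cells, at 1.397, 3.15 and 6.196 against 41.1, 41.7 and 40.3, with no overlap for either. Cytosolic and mitochondrial heat shock genes had a median of -1.97, below that of any list in the report. Of 9 tested, 6 were called lower and 1 higher, a higher call that was lost without GC-PB replicate 1, and the list summed to 109, 103 and 96.5 in GC-PB and 478, 433 and 454 in Fraction 1. Cytosolic ribosomal protein genes were also lower at equal totals, with 68 of 78 called lower and 4 higher and a median of -0.58, against -0.06 for all genes. Of 75 mitochondrial ribosomal protein genes, 37 were called lower and 1 higher, as deposited 68 and none, and without GC-PB replicate 1 29 and 1.

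Most genes of presentation on MHC class I went the other way from most class II genes. Of 15 tested, 11 were called higher and none lower, against 14.1% and 22.3% of all tested genes. As deposited 9 were higher and none lower. The list includes Calr and Pdia3, which are also on the ER chaperone list. Tap1 (0.39), Tap2 (0.38), Erap1 (0.15) and Nlrc5 (0.40) did not pass limma's test. The list summed to 1157, 871 and 1006 in GC-PB and 187, 202 and 204 in Fraction 1. Class I genes share sequence, so that the split of reads among them is uncertain. Malat1, a noncoding RNA that stays in the nucleus, was at 602, 642 and 522 in GC-PB and 44.8, 31.6 and 44.4 in Fraction 1 (3.85 ± 0.13, adjusted p = 5.48e-15 by limma), without overlap. Itm2b, a membrane protein among the 12 largest rises, was at 57.5, 52.6 and 56.6 in GC-PB and 1.29, 1.61 and 1.97 in Fraction 1. Dek, a chromatin protein among the 12 largest falls, was at 0.466, 1.38 and 0.6196 against 15.7, 16.6 and 18.96. Lrmp, an ER membrane protein of germinal centre cells also called Jaw1, was at 0, 0 and 0.413 against 8.47, 11.7 and 11.2, the opposite direction to most ER genes measured here.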
